A study of Rattus norvegicus with 9 samples.

Results

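Keratin 8 (Krt8), keratin 18 (Krt18), keratin 19 (Krt19), villin 1 (Vil1) and ezrin (Ezr), structural proteins of simple epithelia, were followed in the proximal colon of rats fed 3 dietary proteins. Every probe set whose platform annotation gave the symbol of a single gene, and that gene was among these 5, was taken. This gave 6 of the 8799 probe sets on the array: 1 for Krt8, 2 for Krt18, 2 for Krt19 and 1 for Ezr. No probe set carried the symbol Vil1, so villin was not analysed here, and 4 of the 5 genes had values. The mean signal of all 6 probe sets reached 100 with every diet, so that none passed the filter on dim probe sets through 1 diet alone.

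The rats were male Sprague Dawley animals on lifelong purified diets in which the protein was soy protein isolate (SPI), whey protein hydrolysate (WPH) or casein (CAS, the control protein). All 3 groups, CAS included, had received azoxymethane (AOM), a colon carcinogen, in 2 subcutaneous injections of 15 mg/kg, the first at 90 days of age, and tissue was taken 40 weeks later from tumor-free proximal colon with its smooth muscle left on. Equal amounts of RNA from 7 rats were pooled for each diet, and 3 cRNA targets were made from each pool and hybridized to 1 array each. The 3 arrays of a diet were thus technical replicates of 1 pool, and every SD, SE and p-value below measures labelling and hybridization error and compares pools, not populations of rats. Values are MAS 5.0 signals, which the authors scaled to the same average on every array.

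Keratins are intermediate filament proteins that polymerize as pairs of 1 type I and 1 type II chain. In simple epithelia such as the lining of the colon, Krt8 is the type II chain and Krt18 and Krt19 are its type I partners, and the filaments they form give the cells mechanical strength. Villin bundles actin filaments in the core of the brush border microvilli, and ezrin ties those filaments to proteins of the apical membrane. The keratins and villin are widely used as markers of epithelial cells.

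Among the coding genes of rat chromosome 7, Krt8 and Krt18 lie next to each other on opposite strands, whereas Krt19 is on chromosome 10, Vil1 on chromosome 9 and Ezr on chromosome 1 (RefSeq, build GRCr8). The bases before the start sites of Krt8, Krt18 and Ezr are shown, from RefSeq. No such sequence was available for Krt19, and Vil1, which had no probe set, is left out. Control of the transcripts by these stretches was not tested. The Krt8 stretch, chr7:135010410-135010589 (minus strand), holds the first 180 of the 250 bases searched before the start; the Krt18 stretch is chr7:135035918-135036167 (plus strand) and the Ezr stretch chr1:49416574-49416823 (minus strand), 250 bases each. Capitals mark, on either strand, the TATA box letters TATAAA, the Sp1 motif GGGCGG and CACCC, the core motif of Krüppel-like factors.
Krt8: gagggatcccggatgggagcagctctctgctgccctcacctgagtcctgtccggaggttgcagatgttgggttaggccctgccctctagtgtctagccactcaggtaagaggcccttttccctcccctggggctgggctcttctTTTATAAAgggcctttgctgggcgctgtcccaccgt
Krt18: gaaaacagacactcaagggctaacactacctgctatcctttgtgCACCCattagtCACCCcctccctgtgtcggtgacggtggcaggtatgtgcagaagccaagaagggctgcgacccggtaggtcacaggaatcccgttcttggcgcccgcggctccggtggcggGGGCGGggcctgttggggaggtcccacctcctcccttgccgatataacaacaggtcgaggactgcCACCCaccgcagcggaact
Ezr: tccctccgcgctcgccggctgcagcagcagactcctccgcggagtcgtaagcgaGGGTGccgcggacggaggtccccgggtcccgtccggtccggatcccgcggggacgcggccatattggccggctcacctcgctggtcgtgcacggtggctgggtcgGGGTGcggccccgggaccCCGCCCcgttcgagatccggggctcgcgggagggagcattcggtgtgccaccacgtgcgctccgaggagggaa

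The motifs were not shared by the 3 genes. The Krt8 stretch held the letters of the TATA box 1 time on each strand with the 2 copies overlapping. They lay at positions -106 to -101 on the minus strand and -104 to -99 on the plus strand from the start. The bases nearest the start are not shown, and whether these letters serve as a TATA box was not tested. Of 33469 rat promoters, 12.9% held the same letters within 250 bases. The Krt18 and Ezr stretches had no TATA box letters but held the Sp1 motif, found in 30.5% of promoters, on the plus strand in Krt18 and on the minus strand in Ezr. The Krüppel-like factor motif occurred 3 times in Krt18 and 2 times in Ezr, and was present in 49.2% of promoters. Neither TTTATG, a motif of the intestinal Cdx factors (11.4% of promoters), nor TGANTCA, the AP-1 motif (6.34%), occurred in any of the 3. A match is only a match of letters.

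Krt8 gave the brightest signals of the 6 probe sets. Its probe set (S76054_s_at, whose suffix marks probes that can match more than 1 related transcript) read 8443.5, 9058.4 and 8473.4 on the SPI arrays, 3586.5, 4083.3 and 3997.3 on the WPH arrays, and 10911.5, 10361.2 and 10354.7 on the CAS arrays. The means were 8658 ± 347 with SPI, 3889 ± 266 with WPH and 10542 ± 320 with CAS (SD, n = 3 arrays each). The WPH arrays lay far below the others, the SPI arrays slightly below the CAS arrays, and no 2 diets overlapped. With WPH the Krt8 signal was still above that of 94.0% of the 5606 probe sets compared, against 98.4% with CAS.

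Krt18, the type I partner of Krt8, was lowest with WPH on both of its probe sets. The brighter one, rc_AI072634_at, read 1927.9, 1745.8 and 1820.7 with SPI, 391.9, 346.6 and 332.5 with WPH, and 1884.5, 2036.6 and 2059.6 with CAS. The dimmer one, X81448cds_at, read 587.5, 634.5 and 540.2 with SPI, 209.8, 164.3 and 173.1 with WPH, and 515.7, 642.3 and 606.9 with CAS. On both probe sets every WPH array lay below every array of the other diets, while the SPI and CAS arrays overlapped.

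Krt19, the second type I partner, was measured by 2 probe sets that were designed on the same sequence and so are not independent. X81449cds_g_at read 4750.3, 4611.6 and 5134.3 with SPI, 1941.6, 2039.6 and 1872.2 with WPH, and 5233.8, 5643.5 and 5379.6 with CAS. X81449cds_at read 1626, 1387.3 and 1675 with SPI, 676, 663.2 and 623.5 with WPH, and 1700, 1865.5 and 1714.9 with CAS. The WPH arrays again stood apart, and the SPI arrays lay just below the CAS arrays without overlap on either probe set.

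Ezr, the linker of membrane and actin filaments, had the widest spread between arrays. Its probe set X67788_at read 3541, 2612.3 and 3209.1 with SPI, 1982.6, 1506.3 and 1588 with WPH, and 3724.9, 4584.8 and 3761.3 with CAS. All 3 diets were separate, in the order CAS, SPI, WPH from high to low.

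**Figure D1:**
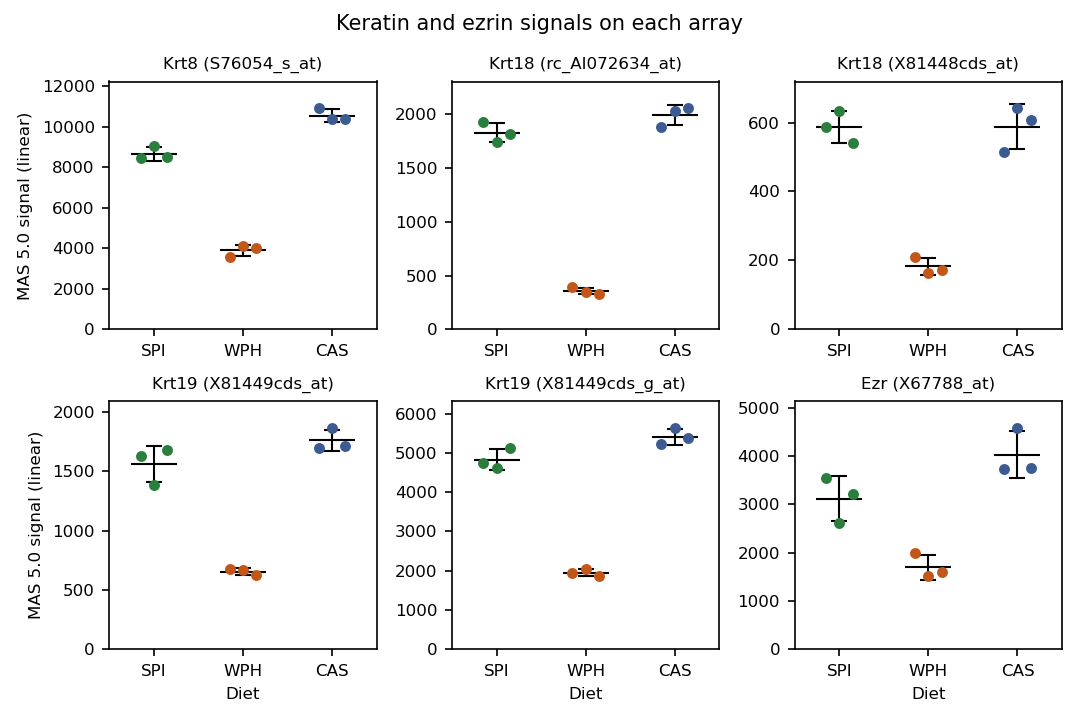
MAS 5.0 signal (linear axis from 0) of each keratin and ezrin probe set on the 9 arrays, by diet; points are arrays, horizontal bars are means and whiskers are ± 1 SD of 3 arrays. On all 6 probe sets the 3 WPH arrays lie below all SPI and CAS arrays, and the SPI arrays lie close to the CAS arrays.

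The first comparison, WPH against CAS, asked how whey protein in place of casein changed these transcripts. Krt18 had the largest change. Its mean signal was 357 ± 31.0 with WPH and 1994 ± 95.2 with CAS on rc_AI072634_at, 5.58-fold lower with WPH (log2 change -2.48, SE 0.0995, adjusted p = 2.26e-08, limma with Benjamini-Hochberg adjustment). On X81448cds_at it was 182 ± 24.1 with WPH and 588 ± 65.3 with CAS, which is 3.23-fold lower, so that the 2 Krt18 probe sets shared the direction but not the size of the change.

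The other genes fell with WPH as well, by 2.38-fold to 2.78-fold. Krt8 was 2.71-fold lower than with CAS (log2 change -1.44, SE 0.0768, adjusted p = 1.36e-07). Krt19 averaged 1951 ± 84.1 with WPH and 5419 ± 208 with CAS on X81449cds_g_at, 2.78-fold lower, and was 2.69-fold lower on X81449cds_at. Ezr averaged 1692 ± 255 with WPH and 4024 ± 486 with CAS, 2.38-fold lower (log2 change -1.25, SE 0.141, adjusted p = 3.33e-05). All 6 probe sets passed the threshold of adjusted p under 0.05 and at least 2-fold, in the downward direction, which 8.47% of the 5606 compared probe sets did. Their median log2 change was -1.46, against 0.06 for all probe sets compared. No WPH array overlapped a CAS array on any of the 6 (background 22.4% of probe sets with WPH below CAS).

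Markers of the cells that can contribute to such a tissue moved with these values. Of 19 measured epithelial markers, a list without the keratins, villin and ezrin, 18 fell with WPH at adjusted p under 0.05 and none rose, and their summed signal was 19284 to 20010 with WPH and 72964 to 74568 with CAS. Smooth muscle markers went the other way, 9 of 10 being higher (sums 227595 to 258267 with WPH and 119078 to 121408 with CAS), as were 12 of 12 markers of enteric neurons and 9 of 9 of fibroblasts. The background was 17.9% of probe sets lower and 20.9% higher. In these bulk samples fewer epithelial cells and less of a transcript in each cell cannot be told apart. The part of these cell types in the keratin and ezrin changes was not tested.

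Genes listed for another organ, the epididymis, and a check of RNA quality also differed between the pools. The list was chosen with earlier results of these data known, and whether its genes are particular to that organ was not checked. All 12 compared genes of the list were lower with WPH at adjusted p under 0.05 in limma (background 17.9% of probe sets lower). For 1 of them, Lcn2, the signals were under 100 on all WPH and CAS arrays. The summed signal of the 14 genes of this list with a probe set was 667 to 1111 with WPH, against 13522 to 14649 with CAS. The sums on the SPI arrays were nearly as low, at 1286 to 1451. With SPI against CAS, 10 of the 12 genes were lower and 1, Lcn2, was higher (background 10.2% and 12%). Whether any such tissue was present, and its part in the keratin and ezrin values, was not tested. The ratio of 3' to 5' β-actin probe set signals, a check of RNA integrity, was 2.21 ± 0.126 with SPI, 2.98 ± 0.488 with WPH and 1.86 ± 0.0256 with CAS (SD, n = 3). The same ratio for GAPDH was 1.56 ± 0.0848 with SPI, 1.63 ± 0.0691 with WPH and 1.56 ± 0.199 with CAS, and the part of RNA integrity was not tested. Of the 3 wash rounds recorded by the instrument, the first held WPH replicate 2 and all CAS arrays. Within it the log2 changes were -1.37 for Krt8, -2.52 and -1.83 for Krt18, -1.41 on either Krt19 probe set and -1.41 for Ezr. This rests on 1 WPH array, which was assumed to vary like the CAS arrays.

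The second comparison, SPI against CAS, asked the same of soy protein. Here the keratins differed little. Krt8 was 1.22-fold lower with SPI (log2 change -0.28, SE 0.0768, adjusted p = 0.021, limma). On the other 5 probe sets the change missed adjusted p under 0.05. For Krt18 the log2 change was -0.12 on rc_AI072634_at (95% confidence interval -0.34 to 0.10) and 0.00 on X81448cds_at (-0.31 to 0.31). For Krt19 it was -0.17 on X81449cds_g_at (-0.34 to 0.01) and -0.18 on X81449cds_at (-0.40 to 0.05). Ezr, at 3121 ± 471 with SPI and 4024 ± 486 with CAS, had a log2 change of -0.37 (-0.68 to -0.06, adjusted p = 0.0869). None of the intervals reached a 2-fold change.

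By count, 0 of 6 passed adjusted p under 0.05 with at least 2-fold (3.37% of all compared probe sets did so downward), 1 of 6 passed adjusted p under 0.05 alone (10.2% downward), and 2 had an unadjusted p under 0.05 in limma. The SPI arrays lay wholly below the CAS arrays on 4 of the 6, against 19.1% of all compared probe sets. No SPI array shared a wash round with a CAS array, and with the wash round as a block the Krt8 change was -0.16 with adjusted p = 0.658. The adjusted p of Krt8 was also above 0.05 without SPI replicate 1 (0.0769), SPI replicate 3 (0.0752), CAS replicate 1 (0.0859) or CAS replicate 3 (0.0508), with log2 changes of -0.27, -0.27, -0.26 and -0.30 in that order.

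The small SPI changes stood beside larger ones in the epithelial markers. Of the 19 markers, 15 fell with SPI at adjusted p under 0.05, and their median log2 change was -0.86, against -0.17 for the 6 keratin and ezrin probe sets. Smooth muscle markers were higher on 9 of 10, with a median of 0.50 (background 10.2% of probe sets lower and 12% higher). Of 8 compared genes of small intestinal enterocytes 5 rose with SPI, while Lct, Alpi and Anpep missed adjusted p under 0.05. The 9 genes of this list with a probe set had summed signals of 4882 to 5163 with SPI and 1370 to 1569 with CAS. Much of the SPI sum was Cps1, at 2109 ± 135 with SPI and 35.6 ± 2.75 with CAS. The part of these cell types in the keratin and ezrin values was not tested. Set against the mean of the 19 markers on the same array, each of the 6 probe sets was higher with SPI than with CAS, by 0.55 (Ezr) to 0.93 (Krt18, X81448cds_at) on the log2 scale, without overlap of arrays. With WPH against CAS the same measure was 0.75 for Krt8, 0.76 and 0.72 for Krt19, 0.94 for Ezr and 0.50 for Krt18 on X81448cds_at, but -0.29 for Krt18 on rc_AI072634_at. Each of these 12 comparisons had the smallest two-sided p that an exact permutation test of 3 against 3 arrays can give, 0.1 (0.12 adjusted over 18 tests), so none could pass 0.05. Of the 19 markers, Cdx1, Foxa3 and Aqp8 read under 100 on all WPH arrays, so the size of their fall with WPH is uncertain. The measure includes the fall of the markers themselves, which were chosen with earlier results of these data known. It is therefore not a correction for the amount of epithelium.

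**Figure D2:**
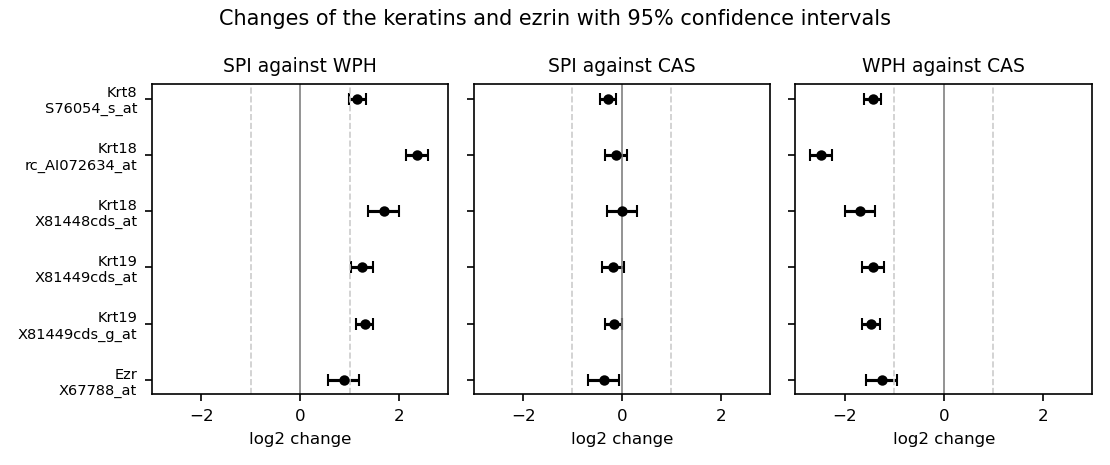
Log2 change (points) with 95% confidence interval (whiskers, limma) of the 6 keratin and ezrin probe sets in the 3 comparisons; solid lines mark no change and dashed lines a 2-fold change. All 6 intervals lie below 0 for WPH against CAS and above 0 for SPI against WPH, and for SPI against CAS they stay within 2-fold.

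The third comparison set the 2 alternative proteins against each other. All 6 probe sets were higher with SPI than with WPH at adjusted p under 0.05 in limma (background 10.1% of probe sets higher), and 5 of them by at least 2-fold (background 4.48%). Krt18 was 5.13-fold higher on rc_AI072634_at (log2 change 2.36, SE 0.0995, adjusted p = 4.13e-08) and 3.22-fold higher on X81448cds_at. Krt8 was 2.23-fold higher, and Krt19 was 2.48-fold and 2.39-fold higher. Ezr was 1.84-fold higher (log2 change 0.88, SE 0.141, adjusted p = 0.00121), under the 2-fold limit. The arrays of the 2 diets were separate on all 6, against 14.9% of all compared probe sets with SPI above WPH. Within the second wash round, which held SPI replicates 1 and 2 and WPH replicates 1 and 3, the 5 keratin probe sets kept adjusted p under 0.05, whereas Ezr had a log2 change of 0.78 with adjusted p = 0.0682. Of the 19 epithelial markers 15 were higher with SPI than with WPH, with a median log2 change of 1.33, and their part was not tested.

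The members were also compared with each other on the same arrays, each gene by its brightest probe set. The change with WPH was larger for Krt18 than for Krt8: the log2 signal of Krt8 minus that of Krt18 was 3.19 to 3.59 on the WPH arrays and 2.33 to 2.53 on the CAS arrays, a difference of 1.04. The Krt18 change likewise exceeded that of Krt19 by 1.01 and that of Ezr by 1.23, again with no overlap of arrays. These differences had the smallest possible exact permutation p of 0.1 (two-sided, 3 against 3; 0.3 adjusted over 18 tests), so that 3 arrays a diet could not bring them past 0.05. When the probe sets of a gene were averaged instead, the change of Krt18 exceeded that of Krt8 by 0.65; for Krt18 minus Krt19 the difference was then -0.64 and for Krt18 minus Ezr -0.83. Krt8, Krt19 and Ezr could not be told apart in this way, since the arrays overlapped in all 3 of their pairs. In SPI against CAS the arrays overlapped in all 6 pairs of genes.

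Transcripts with the most similar profile were sought among 2506 probe sets whose mean over the 9 arrays reached 200, by Pearson's r. Since the 9 arrays are 3 pools, a high r means mainly that the 3 diets had the same pattern. Closest to the mean of the 4 genes were Ctsb (r = 0.994), which encodes the lysosomal protease cathepsin B, C9h6orf141 (0.992), Slc9a3 (0.991), the apical sodium-proton exchanger NHE3, Muc13 (0.989), a membrane mucin, and Epcam (0.988), an epithelial adhesion protein. Muc13 had 4550 ± 302 with SPI, 904 ± 43.4 with WPH and 4721 ± 617 with CAS, the same near equality of SPI and CAS as the keratins. Ctsb had the same order but a smaller range, with 4044 ± 63.1 with SPI, 2368 ± 60.1 with WPH and 4503 ± 27.2 with CAS. Krt8 was most like Ly6al (0.997) and Ctss (0.996), Krt18 like Muc13 and the cytochrome P450 gene Cyp3a9 (0.992 each), Krt19 like Ctsb and Muc13 (0.991 each), and Ezr like Cx3cl1 (0.984), a chemokine, and Hes1 (0.981), a target of Notch signalling.

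Other keratins were little represented. Of 20 listed, 6 had a probe set and 2, Krt20 and Krt14, were bright enough to compare. Krt20, the keratin of differentiated intestinal cells, fell with WPH: its signal was 613 ± 64.4 with WPH and 3038 ± 37.4 with CAS, 4.96-fold lower (adjusted p = 4.31e-08). With SPI it averaged 1854 ± 148, 1.64-fold lower than with CAS (adjusted p = 0.000573). Krt14, a keratin of basal cells in stratified epithelia, was near the lower limit, with 112 ± 28.5 with SPI, 149 ± 42.4 with WPH and 205 ± 9.62 with CAS, and had adjusted p = 0.0229 with SPI, at 1.83-fold lower, and 0.139 with WPH; the difference between these 2 changes was not tested.

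Intermediate filaments of other cells were higher with WPH, where the keratins were lower, and also with SPI, where 1 of the 5 keratin probe sets passed adjusted p under 0.05. Of 7 compared, 6 rose with WPH and the same 6 genes with SPI (adjusted p under 0.05; background 20.9% and 12% of probe sets higher). Nefm, a neurofilament chain, was 2.97-fold higher with WPH, and Prph, the filament of peripheral neurons, was 2.82-fold higher. Des, the desmin of muscle, averaged 18031 ± 436 with SPI, 24874 ± 425 with WPH and 12331 ± 518 with CAS. Vim, the vimentin of mesenchymal cells, averaged 3442 ± 651 with SPI, 3598 ± 626 with WPH and 1651 ± 146 with CAS, thus 2.08-fold higher with SPI and 2.18-fold higher with WPH. The smooth muscle and neuron markers given above rose alongside, and 3 of these filament genes (Nefl, Nefm and Prph) are among the neuron markers and Des among the muscle markers. Their part was not tested.

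**Figure D3:**
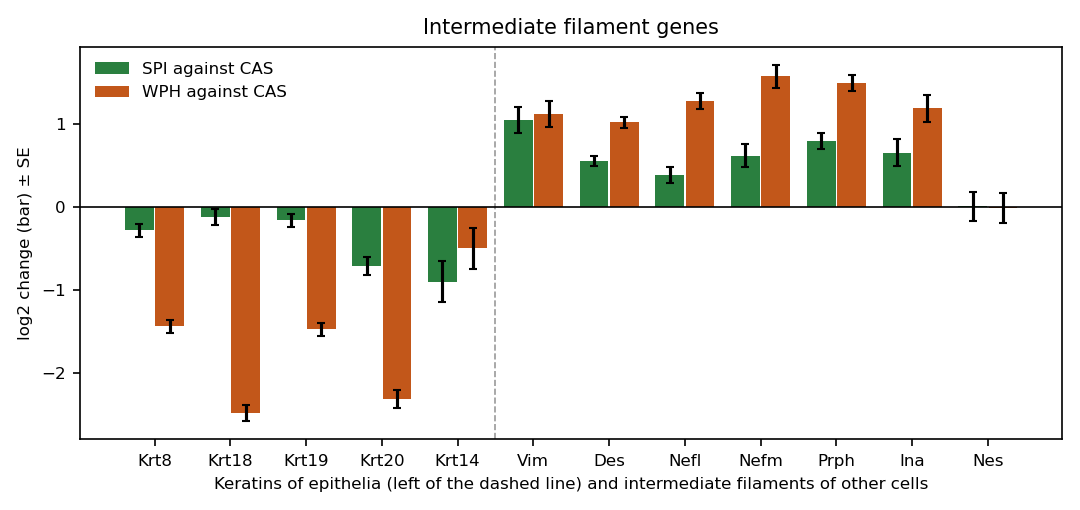
Log2 change against CAS (bars, with SE from limma) of intermediate filament genes, for SPI (left bar of each pair) and WPH (right bar); Krt8, Krt18 and Krt19 are shown by their brightest probe sets. The keratins left of the dashed line are below 0, and Vim, Des, Nefl, Nefm, Prph and Ina right of it are above 0 with either diet.

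A list of proteins linked with keratins, mainly of desmosomes, hemidesmosomes and the cytosol, was compared next. Direct binding to keratins was not checked for each of them. Of 6 compared, Itgb4, the integrin chain of hemidesmosomes, fell with WPH to 673 ± 72.5, against 1066 ± 190 with CAS (log2 change -0.66, adjusted p = 0.00233). The other 5, named here after their values were seen, were Jup and Plec of the filament anchors, the cytosolic 14-3-3 proteins Ywhaz and Ywhae and the chaperone Trap1, with log2 changes between -0.08 and 0.16 for WPH against CAS, none with adjusted p under 0.05. With SPI against CAS 0 of 6 passed, in limma, with log2 changes between -0.12 and 0.16. Beside the 17.9% of all probe sets that fell with WPH, 1 of 6 is near the background.

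The proteins of the microvillus and the terminal web, the setting in which villin and ezrin work, were mixed. Of 9 compared, 4 fell and 2 rose with WPH at adjusted p under 0.05 (background 17.9% lower and 20.9% higher). Myo1a, the motor that ties the microvillus core to the membrane, was under 100 on all WPH arrays and averaged 324 ± 43.6 with CAS, at least 3.24-fold lower with WPH against that limit (adjusted p = 2.23e-06). Myo5b, a motor of apical membrane transport, was 3.94-fold lower (212 ± 38.2 with WPH, 835 ± 52.7 with CAS), and Espn, the actin bundler espin, was 2.15-fold lower. Calm2, a calmodulin gene, was 1.99-fold higher with WPH. With SPI against CAS 3 fell and 3 rose (background 10.2% lower and 12% higher). Myo1a averaged 112 ± 43.5 with SPI, 2.90-fold lower than with CAS (adjusted p = 0.0043; 2.69-fold with signals under 100 set to 100). Espn was 1.65-fold lower and Myo5b 1.59-fold lower, whereas Anxa2, a membrane-binding annexin, averaged 6246 ± 367 with SPI and 3573 ± 458 with CAS, 1.75-fold higher. Anxa2 was lower with WPH, at 2658 ± 219 (log2 change -0.42, adjusted p = 0.00913).

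Of a list of relatives and partners of ezrin, 12 genes were compared. The listed relatives Msn, Rdx and Nf2 were not among them, so the values are of partners. Of the 12, 2 fell and 5 rose with WPH at adjusted p under 0.05, against 17.9% of all probe sets lower and 20.9% higher. The share that fell is near the background. Slc9a3, which binds ezrin directly and is also among the 19 epithelial markers, fell 7.36-fold, with 206 ± 9.4 with WPH and 1515 ± 143 with CAS (adjusted p = 4.53e-08). With SPI it averaged 966 ± 144, 1.57-fold lower than with CAS. The other gene that fell with WPH, Rock2, passed only narrowly, at 1.80-fold lower (adjusted p = 0.04995, limma). Sdc2, a syndecan, was 1.59-fold higher with WPH, and Spn, a leukocyte membrane protein that binds ezrin, averaged 165 ± 64.3 with SPI, 168 ± 41.1 with WPH and a dim 69.0 ± 31.4 with CAS, which with signals under 100 set to 100 is 1.63-fold higher with SPI and 1.65-fold higher with WPH. With SPI against CAS, Slc9a3 (lower) and Spn (higher) were the genes of this list with adjusted p under 0.05, 1 of 12 in each direction, near the background of 10.2% and 12%.

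**Figure D4:**
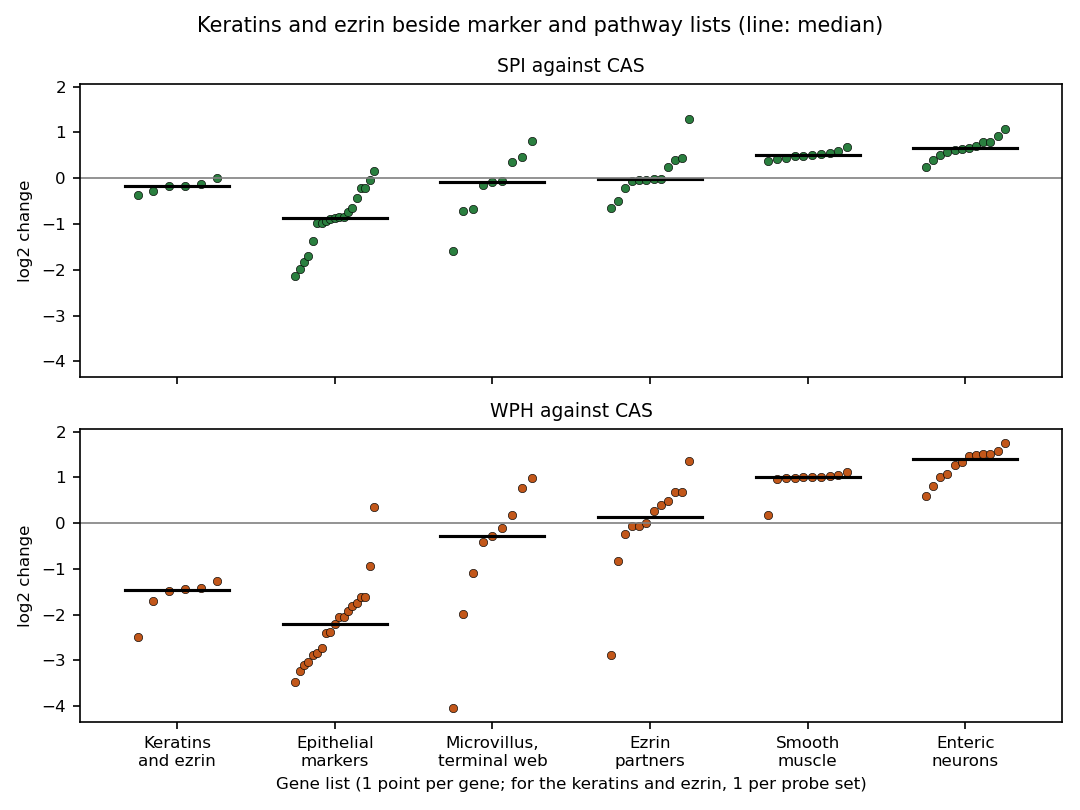
Log2 change of each gene (points; for the keratins and ezrin, each probe set) for SPI against CAS (upper panel) and WPH against CAS (lower panel), with the median of each list as a line. The keratins and ezrin have a median of -0.17 with SPI and -1.46 with WPH, the epithelial markers -0.86 and -2.19; the lowest point of the microvillus list with WPH is Myo1a, whose WPH signals were all under 100.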

How the data were processed

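The authors scanned 9 Affymetrix RG_U34A arrays (3 per diet) and computed the deposited signal values with MAS 5.0, scaled to an average of 500 and given on a linear scale without detection calls. Each target came from 8 µg of pooled RNA, and 10 µg of cRNA was hybridized for 16 h. The deposited instrument settings files were read only for the wash round of each array; other entries in them were not used. Of the 8799 probe sets 7018 had 1 symbol in the platform annotation, 308 several and 1473 none.

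Signals under 0.1 were set to 0.1 and changed to log2. After 59 controls were left out, the 5606 of 8740 probe sets whose mean reached 100 with any diet were fitted for the 3 diets together with limma 3.58.1 (R 4.3.3; lmFit, eBayes with a variance trend), tested on simulated data first. P-values were adjusted by Benjamini-Hochberg over all 5606. A call needed adjusted p under 0.05 and a ratio of mean signals of at least 2. Differences between genes on the same arrays were tested by two-sided exact permutation (scipy 1.17.1). The trimmed mean signal was 500 on every array, 58.6 to 60.2% of probe sets read at least 100, and precision was limited by 3 arrays per diet. A gene of a list was represented by its brightest probe set. Up to 4 genes per list were named, those past adjusted p under 0.05 with the largest change, and up to 5 genes with the most similar profile. The 5 genes, the lists and the tests were chosen with earlier results of these data known. Alternatives were other normalizations, floors, filters and fits, the methods' t-test, blocks for the replicate number and the wash round, single wash rounds (added after the data were seen) and each array left out.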

Additional observations from a re-analysis of the deposited data

How the results depend on the processing

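For WPH against CAS the count of 6 probe sets called lower, and for SPI against WPH the count of 5 called higher (6 without WPH replicate 1), stayed within 1.5 times under all 25 alternatives each, and all 126 recomputed log2 changes for WPH against CAS kept their direction and call. For SPI against CAS the count of 0 became 1 with no fold minimum and 2 with the methods' t-test with no fold minimum, by the construction of these rules. The same-numbered arrays of different diets did not deviate together throughout (correlations from -0.275 to 0.237), so the numbers were not taken as pairs. With the replicate number as a block the counts were 6 for WPH against CAS, 0 for SPI against CAS and 5 for SPI against WPH, and the Krt8 change for SPI against CAS had adjusted p = 0.0515. It was also above 0.05 with median centring (0.0627, log2 change -0.25) and with no variance trend (0.0777, log2 change -0.28). Krt19 on X81449cds_g_at passed under quantile normalization for SPI against CAS (log2 change -0.28, adjusted p = 0.0283), and Ezr missed with the methods' t-test after adjustment for SPI against WPH (0.0736). Values near 0 changed sign. Krt18 on X81448cds_at for SPI against CAS was -0.15 with the wash round as a block and -0.0911 to 0.0672 with 1 array left out. Krt8 minus Krt19 for WPH against CAS was -0.0704 under quantile normalization and -0.017 to 0.0875 with 1 array left out. For SPI against CAS, Krt8 minus Ezr was -0.0904 under quantile normalization and -0.0687 to 0.201 with 1 array left out, and Krt18 minus Krt19 was -0.00545 to 0.0919 with 1 array left out. The cause of these changes was not tested.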

Other observations

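A list of the gelsolin family, to which villin belongs, and of other actin-binding proteins was compared as well. From the gelsolin family and its relatives, only Capg and Svil were among the genes compared. Of 9 compared, 1 fell and 4 rose with WPH at adjusted p under 0.05 in limma (background 17.9% lower and 20.9% higher). The share that fell is near the background. With SPI, where ezrin itself missed this threshold, 0 fell and 3 rose (background 10.2% lower and 12% higher). Capg, the macrophage-capping protein of the gelsolin family, fell with WPH to 719 ± 156, against 1133 ± 78.6 with CAS (adjusted p = 0.00298). Svil, the supervillin that shares villin's domains, rose, with 3252 ± 478 with SPI, 4699 ± 534 with WPH and 2142 ± 150 with CAS, 1.52-fold higher with SPI and 2.19-fold higher with WPH. Tmsb4x, the actin-sequestering thymosin beta 4, was 1.43-fold higher with SPI and 1.82-fold higher with WPH. Smooth muscle and fibroblast markers rose in the same comparisons, and their part was not tested.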
